A study of Arabidopsis thaliana with 15 samples.

Results

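The genes described here are 29 genes of Arabidopsis thaliana whose transcripts were more abundant in every leaf library of the mutants drdd and rdd than in any leaf library of dme and WT. Each carries a nuclear gene identifier that ends in 0 or 5 and averages at least 1 CPM (counts scaled to 1000000 counts assigned to genes in a library) in both drdd and rdd. In addition, its lowest CPM over the 7 drdd and rdd libraries is at least 1.2 times its highest CPM over the 8 dme and WT libraries. Of 37336 genes counted, 16728 had such an identifier and such mean levels, and the 29 genes are 0.173% of them. The genes were chosen by these measured CPM values, so the differences of drdd and rdd from dme and WT are given as a description with no test. The differences between drdd and rdd and between dme and WT were not criteria of the choice and were tested. The rule still limits them, since a gene raised in drdd or rdd alone, or in dme as well, could not enter the set.

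RNA-seq was made from polyadenylated RNA of the fifth rosette leaf at 21 days, from plants kept at 22 °C and 50% humidity with 16 h of light a day. The drdd plants (3 libraries, with letters B to D) carry the mutant alleles dme-2, ros1-3, dml2-1 and dml3-1, and the rdd plants (4 libraries, A to D) carry ros1-3, dml2-1 and dml3-1 with DME intact. The dme plants (4 libraries) carry dme-2 alone, and WT (4 libraries) are segregants that are wild type at all 4 loci. All 4 genotypes are labelled with a pAGL61::DME transgene. The AGL61 promoter is known to be active in the central cell, so the transgene can supply DME in the ovule. The labels do not say whether letters stand for separate plants, so tests measure the spread between libraries, which may be partly technical.

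DME, ROS1, DML2 and DML3 are DNA glycosylases that cut 5-methylcytosine out of DNA, after which base excision repair fills in unmethylated cytosine. ROS1 is known as the main demethylase of vegetative tissue, with DML2 and DML3 acting beside it, and DME is known for its role in the central cell and in pollen, where it sets up imprinted expression in the seed. Methylation of a promoter often goes with low transcription, although at a few genes, ROS1 among them, it goes with high transcription.

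Libraries held 8730340 to 23302135 counts assigned to genes, with a median of 12178873. DML2 was at 9.52 ± 2.70 CPM in drdd and 6.99 ± 2.41 CPM in rdd, against 25.9 ± 2.12 CPM in dme and 26.2 ± 4.71 CPM in WT (mean ± SD over libraries, here and below). DML3 stood at 3.31 ± 0.732 CPM in drdd and 3.21 ± 0.784 CPM in rdd, against 6.85 ± 1.87 CPM in dme and 6.46 ± 1.48 CPM in WT. ROS1 stood at 65.1 ± 5.07 CPM in drdd and 58.4 ± 5.81 CPM in rdd, against 86.7 ± 19.7 CPM in dme and 80.3 ± 10.48 CPM in WT. DME stood at 77.9 ± 7.14 CPM in drdd and 85.5 ± 17.1 CPM in rdd, against 61.0 ± 8.81 CPM in dme and 88.8 ± 11.3 CPM in WT. DML2 and DML3 transcripts therefore separated drdd and rdd from dme and WT in every library. ROS1 transcripts did not, with up to 71.0 CPM in drdd and down to 59.7 CPM in dme. DME, ROS1, DML2 and DML3 transcripts were all still counted in the plants that carry their mutant alleles. All genotypes are labelled with the DME transgene, and its part in the DME counts was not tested. Leaf identity was read from the summed level of 8 mesophyll genes. This was 33991 to 43528 CPM in drdd and 46003 to 50132 CPM in rdd. In dme it was 49835 to 55925 CPM and in WT 41738 to 49764 CPM. The libraries drdd B and drdd C, at 33991 and 34177 CPM, lay below every rdd, dme and WT library. The meristem regulators WUS, CLV3 and LFY, the pollen genes MGH3 and DUO1 and the root genes RHD6 and PLT2 had no count in any library. Other listed genes of those tissues did have counts. The 9 meristem and floral genes summed to 0.803 to 1.0 CPM in drdd and 1.14 to 16.7 CPM in rdd, against 0.164 to 0.504 CPM in dme and 0 to 1.29 CPM in WT, and the floral gene PI gave 15.9 CPM of the 16.7 CPM in rdd D. The 7 pollen genes summed to 2.07, 3.03 and 4.42 CPM in rdd B, rdd C and rdd D and to at most 0.278 CPM in every other library. VGD1, a pollen pectin methylesterase, was the only pollen gene tested and was called higher in rdd against WT (edgeR adjusted p = 0.0344). The 8 root genes summed to 52.1 to 62.4 CPM in every library, nearly all of it from SCR and SHR, which leaves also express. The part of these signals in the results on the 29 genes was not tested. Libraries of 1 genotype differed in 10 genes of salicylic acid defence, whose summed level was 1144 CPM in rdd B, 2311 CPM in WT A and 1496 CPM in WT C, and 136 to 868 CPM in the other libraries.

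Of the 29 genes, 28 code for proteins and 1, AT3G06245, is annotated as a long non-coding RNA. Their annotated roles are varied. They include enzymes of lipid, sugar, ureide and amino acid metabolism (ACX5, UGT85A2, AT2G35810, AT2G35820, NS2), a cytochrome P450 (CYP705A9), regulators of the stomatal lineage (SPCH, POLAR), proteins of vesicle and actin traffic (RABC2b, XIF, AT2G43800) and proteins of defence or stress (THI2.2, GPX2, AT2G20560). In 10 of them the mean over the dme and WT libraries was under 1 CPM, in 10 it was 1 to 10 CPM, and in 9 it was over 10 CPM. The mean over drdd and rdd libraries was 1.44 to 102 times that over dme and WT libraries in the 28 genes with a count outside drdd and rdd, with a median of 2.97, and in 6 genes it was under 2 times.

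**Figure D1:**
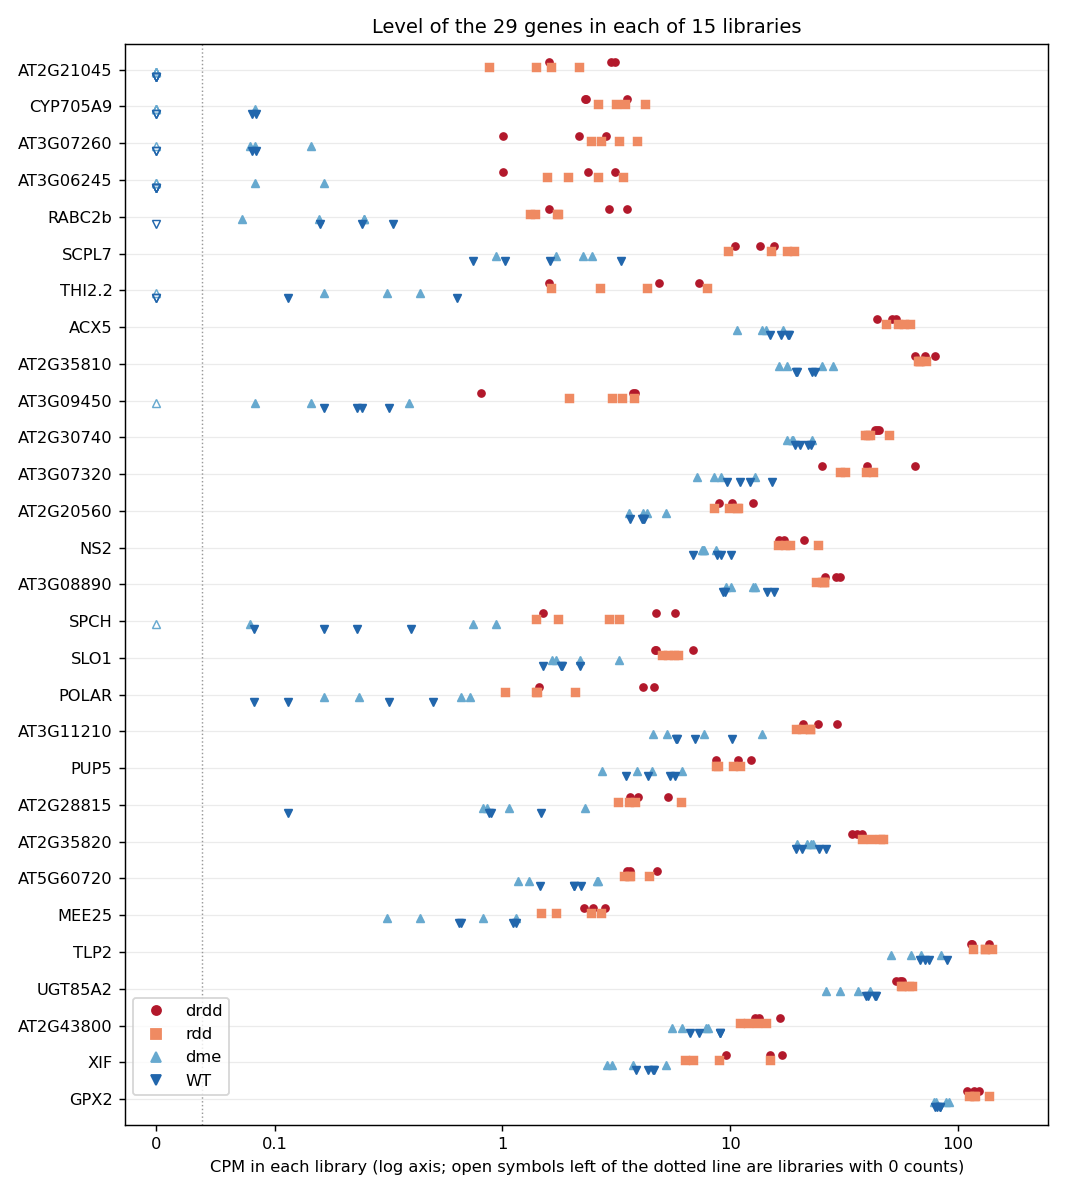
CPM on a log axis of the 29 genes in each of the 15 libraries, with rows in order of the ratio of the lowest drdd or rdd library to the highest dme or WT library; circles are drdd, squares rdd, upward triangles dme and downward triangles WT, and open symbols at the left are libraries with 0 counts. Rows at the top, such as AT2G21045 and CYP705A9, are near 0 outside drdd and rdd, whereas rows at the bottom, such as GPX2, are high in all genotypes and separated by a narrow gap.

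The 250 bases before the annotated start of 5 genes are shown, since promoter cytosines are among the sites where the mutated enzymes act. AT2G21045, CYP705A9, AT3G07260 and RABC2b are the protein-coding genes with the widest gap between the genotypes, and AT2G35810 is the most abundant gene whose gap is over 2-fold. None of the 5 windows holds an annotated exon of another gene. The sequences are those of RefSeq assembly TAIR10.1, at chr2:9027480-9027729 on the plus strand for AT2G21045, chr2:11527855-11528104 on the minus strand for CYP705A9, chr3:2309359-2309608 on the plus strand for AT3G07260, chr3:3038503-3038752 on the minus strand for RABC2b and chr2:15048635-15048884 on the plus strand for AT2G35810. They run 5′ to 3′ on the strand of the gene, and capitals mark CG dinucleotides, the main site of maintained methylation.
AT2G21045: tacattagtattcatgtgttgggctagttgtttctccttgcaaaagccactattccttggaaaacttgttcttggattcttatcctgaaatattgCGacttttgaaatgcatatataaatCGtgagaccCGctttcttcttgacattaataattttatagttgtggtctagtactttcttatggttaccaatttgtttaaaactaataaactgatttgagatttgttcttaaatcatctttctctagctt
CYP705A9: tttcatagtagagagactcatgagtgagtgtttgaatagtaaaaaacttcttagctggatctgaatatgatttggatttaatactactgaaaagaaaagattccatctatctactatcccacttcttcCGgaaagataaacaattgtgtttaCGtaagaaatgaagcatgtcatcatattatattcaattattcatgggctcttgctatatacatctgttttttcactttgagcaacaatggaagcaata
AT3G07260: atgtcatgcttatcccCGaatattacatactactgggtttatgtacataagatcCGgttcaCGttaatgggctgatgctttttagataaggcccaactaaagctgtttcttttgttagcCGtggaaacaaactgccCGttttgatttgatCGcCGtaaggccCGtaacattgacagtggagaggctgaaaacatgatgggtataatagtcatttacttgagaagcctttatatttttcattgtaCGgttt
RABC2b: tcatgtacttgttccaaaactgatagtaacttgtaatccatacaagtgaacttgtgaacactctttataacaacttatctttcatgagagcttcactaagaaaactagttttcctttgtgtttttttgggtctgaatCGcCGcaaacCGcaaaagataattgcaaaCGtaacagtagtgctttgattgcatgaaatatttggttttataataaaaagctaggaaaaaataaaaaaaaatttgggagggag
AT2G35810: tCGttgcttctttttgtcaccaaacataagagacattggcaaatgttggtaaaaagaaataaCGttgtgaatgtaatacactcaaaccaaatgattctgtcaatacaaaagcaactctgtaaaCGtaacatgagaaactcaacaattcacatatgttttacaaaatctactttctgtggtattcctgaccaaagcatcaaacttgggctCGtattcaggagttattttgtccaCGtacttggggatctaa
The windows of AT2G21045 and CYP705A9 hold 3 and 2 CG dinucleotides, and those of AT3G07260, RABC2b and AT2G35810 hold 9, 4 and 5. Over all 29 genes the count ran from 0 in XIF to 11 in SLO1 and AT2G35820, with a median of 4, against a median of 5 in the 16698 other genes with the same identifiers and mean levels. The GC content had a median of 30.8% in the 29 windows and 31.6% in the others. No methylation data were analysed here, so whether these cytosines are methylated is not shown.

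Motifs of common promoter elements were searched for in the 29 windows on both strands. TATAAA, the core of the TATA box, was in 15 windows (51.7% of the 29 genes and 45.2% of the other genes). CACGTG, the G-box read by bZIP and bHLH factors, was in 3 (10.3% and 7.42%), TTGAC, the core of the W-box read by WRKY factors, in 11 (37.9% and 44.2%), and TGACG, a short site read by TGA factors, in 6 (20.7% and 19.3%). TTGAC and TGACG can overlap by 4 bases. In structure, the 29 genes had a median of 1689 exonic bases and 4 exons, and the other genes 1848 exonic bases and 5 exons.

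The widest gaps belonged to genes that were nearly silent in dme and WT leaves. AT2G21045, annotated as a protein of the rhodanese superfamily, a fold shared by sulfur transferases and some phosphatases, had 3.12, 3.01 and 1.61 CPM in the drdd libraries and 1.41, 0.871, 2.17 and 1.63 CPM in the rdd libraries, and no count in any dme or WT library. With 101 counts over the drdd libraries, 87 over the rdd libraries and 0 in dme and WT, it was at least 41.1-fold higher in drdd than in WT and at least 24.0-fold higher in rdd than in WT, where 3 counts over the 4 WT libraries set the bound. These bounds cover counting error only. CYP705A9, a cytochrome P450 monooxygenase, had 2.34, 3.53 and 2.31 CPM in the drdd libraries and 3.16, 4.24, 3.47 and 2.62 CPM in the rdd libraries. Elsewhere CYP705A9 had 0, 0, 0.0821 and 0 CPM in dme and 0, 0, 0.0823 and 0.0791 CPM in WT. It was counted 99 times in drdd and 176 times in rdd, against 1 time in dme and 2 times in WT, a pooled ratio of 60.5 in drdd over WT (95% counting interval 16.7 to 499) and 72.9 in rdd over WT (20.2 to 602). Every drdd and rdd library of these genes stood clear of 0, and none of the dme and WT libraries held more than 1 count.

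AT3G07260, a protein with the FHA fold that binds phosphorylated partners, had 2.84, 2.18 and 1.0 CPM in the drdd libraries and 2.46, 2.72, 3.9 and 3.26 CPM in the rdd libraries. Elsewhere AT3G07260 had 0.144, 0.0779, 0 and 0.0821 CPM in dme and 0, 0, 0.0823 and 0.0791 CPM in WT. The drdd libraries held 10 to 51 counts of it and the rdd libraries 25 to 76, against 0 to 2 in dme and 0 to 1 in WT. The non-coding RNA AT3G06245 had 1.0, 2.39 and 3.11 CPM in the drdd libraries and 1.93, 3.37, 1.56 and 2.62 CPM in the rdd libraries. Elsewhere AT3G06245 had 0, 0, 0.0821 and 0.164 CPM in dme and no count in WT. Its bound was at least 29.3-fold in drdd over WT and at least 36.4-fold in rdd over WT. This RNA is 210 bases long with 1 exon, at chr3:12970808-12971017 (TAIR10.1), and the whole of it lies inside another annotated RNA on the same strand, AT3G00630, so the 2 transcripts cannot be told apart by position. The nearest genes that passed the count filter lay 377256 bases before it and 518231 bases after it, a stretch with few expressed genes.

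RABC2b, a small GTPase of the Rab family that directs vesicles to membranes, had 2.95, 3.53 and 1.61 CPM in the drdd libraries and 1.32, 1.74, 1.39 and 1.76 CPM in the rdd libraries. Elsewhere RABC2b had 0.072, 0.156, 0.246 and 0.246 CPM in dme and 0.243, 0, 0.329 and 0.158 CPM in WT. Its lowest drdd or rdd library was 4.0 times its highest dme or WT library. AT3G09450, of a family of membrane proteins named for resistance to fusaric acid, had 3.73, 3.84 and 0.803 CPM in the drdd libraries and 3.34, 1.96, 3.03 and 3.78 CPM in the rdd libraries. Elsewhere AT3G09450 had 0.144, 0.389, 0 and 0.0821 CPM in dme and 0.243, 0.229, 0.165 and 0.316 CPM in WT. In this gene drdd D, with 8 counts, stood well below the other drdd libraries and still above all dme and WT libraries. THI2.2, a thionin, one of the small cysteine-rich peptides toxic to microbes, had 4.84, 7.26 and 1.61 CPM in the drdd libraries and 4.3, 1.63, 2.69 and 7.9 CPM in the rdd libraries. Elsewhere THI2.2 had 0.432, 0.312, 0 and 0.164 CPM in dme and 0, 0.115, 0 and 0.633 CPM in WT. THI2.2 varied most within drdd and rdd, with a coefficient of variation of 62.1% in drdd and 66.4% in rdd. MEE25, an enzyme of the NAD(P)-binding Rossmann fold, completes with SPCH and POLAR the 10 genes that averaged under 1 CPM over dme and WT. MEE25 was not silent there, with counts in every dme and WT library and 1.15 CPM in dme C. It averaged 2.53 ± 0.265 CPM in drdd and 2.09 ± 0.592 CPM in rdd, against 0.678 ± 0.382 CPM in dme and 0.89 ± 0.274 CPM in WT.

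SPCH and POLAR act early in the stomatal lineage. SPCH is the bHLH factor that starts the asymmetric divisions of the lineage, and POLAR is a protein that gathers at 1 side of the dividing cell. SPCH had 1.5, 5.71 and 4.72 CPM in the drdd libraries and 1.41, 3.26, 2.95 and 1.76 CPM in the rdd libraries. Elsewhere SPCH had 0.936, 0.0779, 0.739 and 0 CPM in dme and 0.0809, 0.229, 0.165 and 0.395 CPM in WT. POLAR had 1.45, 4.15 and 4.62 CPM in the drdd libraries and 1.41, 1.41, 2.08 and 1.03 CPM in the rdd libraries. Elsewhere POLAR had 0.72, 0.234, 0.657 and 0.164 CPM in dme and 0.0809, 0.115, 0.494 and 0.316 CPM in WT. In both genes drdd B was low beside drdd C and drdd D, close to the rdd libraries, and dme was spread from near 0 up to 0.936 CPM for SPCH and 0.720 CPM for POLAR. The list of the lineage held 10 genes. Their summed level was 78.6 to 115 CPM in drdd and 83.6 to 111 CPM in rdd, against 58.4 to 85.7 CPM in dme and 65.9 to 80.3 CPM in WT. The drdd range overlapped those of dme and WT, and the rdd range overlapped dme and lay above WT. Of the 7 other listed genes that were tested, 2 were called higher and 1 lower in drdd against WT, where 1.35% of all tested genes were called, and 0 in rdd against WT, where 1.08% were (edgeR, adjusted p under 0.05). The higher genes were the receptor-like protein TMM, at 21.3 ± 8.54 CPM in drdd and 1.58 ± 1.08 CPM in WT (edgeR adjusted p = 0.00879), and the receptor kinase ERL1, at 4.39 ± 1.61 CPM in drdd and 0.94 ± 0.637 CPM in WT (edgeR adjusted p = 0.0461). FAMA, the factor that completes guard cell identity, was lower, at 19.8 ± 6.25 CPM in drdd and 34.5 ± 5.68 CPM in WT (edgeR adjusted p = 0.0306). In rdd FAMA was not lower, at 40.6 ± 4.33 CPM. It was called lower in drdd against rdd (edgeR adjusted p = 0.0227), where 0.468% of all tested genes were called. TMM was at 9.78 ± 3.80 CPM in rdd and ERL1 at 2.39 ± 0.663 CPM, neither called against WT (edgeR adjusted p = 0.0535 and 0.198). Listed guard cell genes summed to 121 to 142 CPM in drdd and 155 to 188 CPM in rdd, against 113 to 164 CPM in dme and 109 to 150 CPM in WT, and their part in these differences was not tested. In a leaf sampled whole, more cells of a type and more RNA per cell cannot be told apart.

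Enzymes were among the abundant genes. ACX5, a peroxisomal acyl-CoA oxidase that shortens fatty acids and jasmonate precursors, had 53.5, 51.6 and 44.4 CPM in the drdd libraries and 61.9, 48.3, 57.7 and 54.5 CPM in the rdd libraries. Elsewhere ACX5 had 13.8, 14.4, 10.7 and 17.1 CPM in dme and 15, 18.2, 18 and 16.8 CPM in WT. Its drdd and rdd libraries averaged 3.43 times the dme and WT libraries and none came within a factor of 2 of them. UGT85A2, a glucosyltransferase that adds sugar to small molecules, had 57, 53.6 and 55.5 CPM in the drdd libraries and 63.1, 56.7, 61.3 and 56.2 CPM in the rdd libraries. Elsewhere UGT85A2 had 41.3, 30.4, 26.3 and 36.3 CPM in dme and 43.8, 39.5, 40.3 and 43.4 CPM in WT. Here the gap was narrow, with the lowest drdd or rdd library at 1.23 times the highest dme or WT library. GPX2, a glutathione peroxidase that removes peroxides, had 118, 123 and 109.6 CPM in the drdd libraries and 119, 118, 136 and 111 CPM in the rdd libraries. Elsewhere GPX2 had 79.8, 91.3, 88.7 and 78.3 CPM in dme and 83.3, 80.6, 83.1 and 79.4 CPM in WT. Its level averaged 1.44 times that of dme and WT, the smallest ratio of means in the 29 genes, and its libraries varied little. Per kilobase of exon, GPX2 was also the most abundant of the 29 genes in drdd and rdd, at 133 CPM per kilobase, followed by AT2G35810 at 66.7 and TLP2 at 64.8, and MEE25 was the least abundant at 1.08.

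SCPL7, a serine carboxypeptidase-like protein of a family that includes acyltransferases, had 13.6, 15.6 and 10.5 CPM in the drdd libraries and 19.1, 9.79, 15.1 and 17.8 CPM in the rdd libraries. Elsewhere SCPL7 had 0.936, 2.26, 2.46 and 1.72 CPM in dme and 1.62, 3.32, 0.741 and 1.03 CPM in WT. Its lowest drdd or rdd library was 2.95 times its highest dme or WT library, and the drdd and rdd values overlapped each other throughout. AT3G07320, a glycosyl hydrolase of the family of beta-1,3-glucanases, ranged over 25.3 to 64.8 CPM in drdd and 30.5 to 42.3 CPM in rdd, against 7.14 to 12.9 CPM in dme and 9.72 to 15.3 CPM in WT, with drdd C at 64.8 CPM far above the other libraries. AT3G11210, an esterase of the SGNH fold, ranged over 21 to 29.5 CPM in drdd and 19.5 to 22.5 CPM in rdd, against 4.59 to 13.8 CPM in dme and 5.76 to 10.2 CPM in WT. The gap of AT3G11210 was set by 1 library of dme, since the next highest dme or WT library was at 10.2 CPM. PUP5, a purine permease that moves purines and their derivatives across membranes, ranged over 8.63 to 12.3 CPM in drdd and 8.71 to 11.1 CPM in rdd, against 2.73 to 6.15 CPM in dme and 3.48 to 5.73 CPM in WT.

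NS2, SLO1 and AT2G28815 are genes of RNA and protein synthesis. NS2, an asparaginyl-tRNA synthetase, averaged 18.3 ± 2.56 CPM in drdd and 19.1 ± 3.65 CPM in rdd, against 7.88 ± 0.554 CPM in dme and 8.72 ± 1.34 CPM in WT. SLO1, a pentatricopeptide repeat protein that edits mitochondrial RNA, averaged 5.41 ± 1.24 CPM in drdd and 5.48 ± 0.369 CPM in rdd, against 2.2 ± 0.735 CPM in dme and 1.83 ± 0.279 CPM in WT. AT2G28815, annotated as a ribosomal protein L16, averaged 4.3 ± 0.92 CPM in drdd and 4.18 ± 1.3 CPM in rdd, against 1.26 ± 0.703 CPM in dme and 0.839 ± 0.56 CPM in WT. The drdd and rdd libraries averaged 2.26 times the dme and WT libraries for NS2 and 2.71 times for SLO1, and AT2G28815 was uneven in dme, where dme A at 2.30 CPM stood apart from 0.821 to 1.07 CPM in the other dme libraries.

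The remaining genes concern signalling, the cytoskeleton and protein folding. AT2G30740, a protein kinase, had 44.9, 44.3 and 43.2 CPM in the drdd libraries and 39.2, 49.8, 41.1 and 40.5 CPM in the rdd libraries. Elsewhere AT2G30740 had 18.7, 18.9, 22.8 and 17.8 CPM in dme and 22.6, 19.4, 22 and 20.2 CPM in WT. Its drdd libraries were the least variable of any in the set, with a coefficient of variation of 1.99%. TLP2, a tubby-like protein, had 136, 114 and 116 CPM in the drdd libraries and 131, 116, 141 and 132 CPM in the rdd libraries. Elsewhere TLP2 had 62.4, 68.7, 50.7 and 84 CPM in dme and 68.5, 89.9, 74.4 and 71.6 CPM in WT. The lowest of its drdd and rdd libraries, drdd C, was 1.26 times its highest dme or WT library, WT B. XIF, a class XI myosin that moves organelles along actin, averaged 13.8 ± 3.74 CPM in drdd and 9.28 ± 3.99 CPM in rdd, against 3.73 ± 1.08 CPM in dme and 4.35 ± 0.343 CPM in WT. A formin that builds actin filaments, AT2G43800, averaged 14.3 ± 1.97 CPM in drdd and 12.6 ± 1.44 CPM in rdd, against 6.88 ± 1.2 CPM in dme and 8.0 ± 1.21 CPM in WT, and a DNAJ co-chaperone, AT2G20560, averaged 10.5 ± 1.87 CPM in drdd and 9.98 ± 1.09 CPM in rdd, against 4.33 ± 0.684 CPM in dme and 4.02 ± 0.254 CPM in WT. Among these genes XIF was the most uneven within rdd, with a coefficient of variation of 43.0%. AT3G08890, of unknown function, ranged over 26.1 to 30.2 CPM in drdd and 23.9 to 25.8 CPM in rdd, against 9.58 to 12.9 CPM in dme and 9.31 to 15.6 CPM in WT. AT5G60720, also of unknown function, ranged over 3.51 to 4.77 CPM in drdd and 3.43 to 4.39 CPM in rdd, against 1.17 to 2.63 CPM in dme and 1.46 to 2.22 CPM in WT.

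The threshold of 1.2 cuts through a continuous range. Just inside it were GPX2 with a ratio of 1.201, XIF with 1.21 and AT2G43800 with 1.22. Just outside were AT2G08220 with a ratio of 1.19, the ubiquitin ligase gene PUB12 with 1.18 and ESK1, a gene of xylan acetylation, with 1.18. PUB12 is the neighbour of AT2G28815, 155 bases away on the same strand. The lowest of the 7 drdd and rdd libraries was spread over all of them, from rdd B for 2 genes to drdd D for 7 genes, and the highest of the 8 dme and WT libraries ran from WT A for 1 gene to WT B and dme D for 6 genes each. No library therefore set the bounds alone. The median coefficient of variation of the 29 genes was 17.7% in drdd and 14.9% in rdd. It was 33.3% in dme and 19.7% in WT, over the 28 and 27 genes with a count there. The other genes had 14.98%, 14.1%, 17.2% and 15.3% in the same order. In 10 of the 29 genes the mean over dme and WT was under 1 CPM, and CYP705A9, with 1 count in dme, had 200% there. The part of low counts in these medians was not tested.

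The comparison of drdd with rdd asks whether loss of DME in addition to the other enzymes moved these genes further. None of the 29 genes was called, where 0.468% of 18598 tested genes were (edgeR quasi-likelihood test on counts, Benjamini-Hochberg adjusted p under 0.05). By DESeq2, where 1.89% of genes were called, and in the authors' deposited table, where 3.12% were, the number of the 29 genes called was also 0. A gene that differed widely between drdd and rdd could be kept out by the rule, so these counts of 0 do not show that loss of DME was without effect. The log2 fold change of drdd against rdd had a median of -0.01 in the 29 genes and 0.01 in all tested genes, was positive in 13 of the 29 genes and negative in 16, and ran from -0.69 to 1.12. The lowest p belonged to AT2G35820, with a log2 fold change of -0.33 ± 0.12 (SE, unadjusted p = 0.0186, edgeR adjusted p = 0.311), the only one of the 29 genes with an unadjusted p under 0.05. POLAR followed with 1.12 ± 0.54 (SE, edgeR adjusted p = 0.462). In AT2G35820 all 3 drdd libraries, at 34.4 to 37.8 CPM, lay below the 4 rdd libraries, at 37.9 to 46.8 CPM, and in POLAR drdd C and drdd D, but not drdd B, lay above every rdd library.

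The comparison of dme with WT asks whether loss of DME alone moved the genes. None of the 29 genes was called by edgeR, where 0.0108% of tested genes were, and none by DESeq2, where 0.0316% were. The rule kept out genes raised in dme to near the drdd and rdd levels, so the counts of 0 are limited by the choice. In the authors' deposited table the number called was also 0, with 0.0509% of genes called and an adjusted p given for 19 of the 29 genes. The log2 fold change had a median of -0.03 in the 29 genes and -0.01 in all tested genes and was positive in 13 of the 29 genes and negative in 15, and AT2G21045 had no count in either group. UGT85A2 had the lowest p and the only unadjusted p under 0.05, with a log2 fold change of -0.29 ± 0.12 (SE, unadjusted p = 0.0271, edgeR adjusted p = 0.974). Its dme libraries ran from 26.3 to 41.3 CPM and its WT libraries from 39.5 to 43.8 CPM, so the groups overlapped in dme A. Next came AT3G06245 at 2.84 ± 1.43 (SE, edgeR adjusted p = 0.974), which rests on 3 counts in dme and none in WT.

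The interaction, the difference between drdd and rdd minus that between dme and WT, asks whether loss of DME acted differently where the other 3 enzymes were missing. It called none of the 29 genes and 0.108% of tested genes by edgeR, and none of the 29 genes by DESeq2, where 0.983% of genes were called. The same limit of the rule applies. None of the 29 genes had an unadjusted p under 0.05, and the lowest adjusted p was 0.565, that of AT3G06245 with an interaction of -3.05 ± 1.51 (SE, log2, edgeR). AT2G35820 came next with -0.29 ± 0.17 (SE, log2, edgeR adjusted p = 0.62). A p above the threshold does not show that levels were equal. The standard errors of drdd against rdd ran from 0.10 for GPX2 and AT2G30740 to 0.75 for THI2.2.

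**Figure D2:**
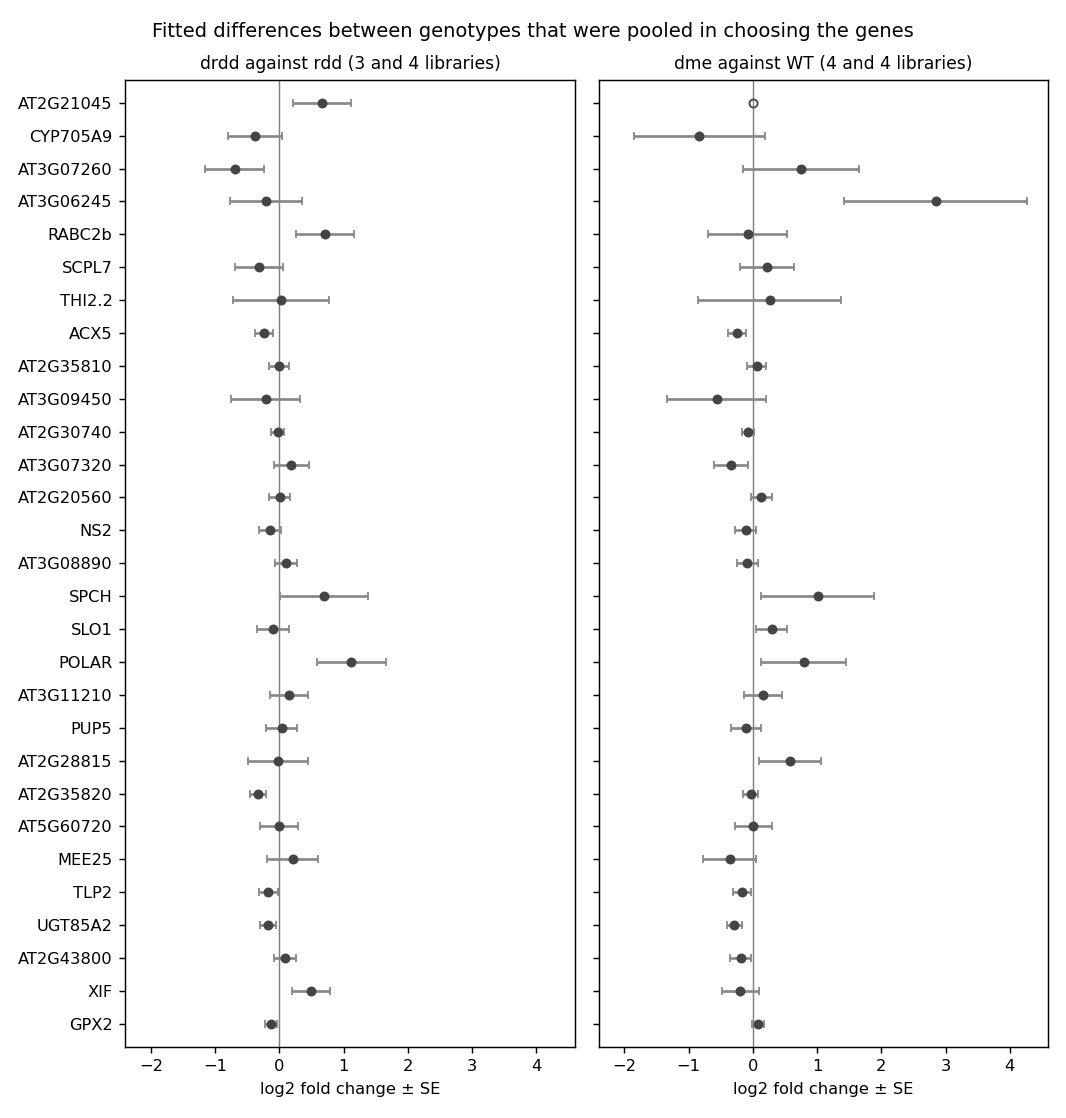
Log2 fold change with its SE of the 29 genes in drdd against rdd (left, 3 and 4 libraries) and in dme against WT (right, 4 and 4 libraries), from the edgeR fit over all 15 libraries, with genes in the order of the plot by library. Points fall on both sides of 0, POLAR is the highest at left with 1.12 and AT3G06245 the highest at right with 2.84, and AT2G21045 is drawn open at right because it has no count in dme or WT.

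For the contrasts that chose the genes, the counts are given only for completeness and nothing is read from them. edgeR called 24 of the 29 genes higher in drdd against WT, where 0.559% of tested genes were called higher (14 of the genes without the library drdd C, where 105 of all tested genes were called in either direction against 251 with it, and 12 with only drdd and WT in the fit, where 111 were), and 21 higher in rdd against WT, where 0.414% were. In the authors' deposited tables the DESeq2 test passed 26 of the 29 genes in drdd against WT, where 3.38% of genes passed in either direction, and 28 in rdd against WT, where 4.7% did.

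Position on the chromosomes was not used in the choice, and the genes were unevenly spread. Chromosome 2, which holds ROS1, had 15 of the 29 genes (51.7%) and 15.1% of the genes that could have qualified. Chromosome 3, which holds DML2, had 9 (31.0%, against 19.97%). Chromosomes 1, 4 and 5 had 1, 1 and 3 of the genes, where 26.4%, 15.03% and 23.5% of the genes that could have qualified lie. Taking 2 Mb on each side of the 3 loci mutated in rdd together, 15 of the 29 genes (51.7%) fell there. The share of the genes that could have qualified was 13.6%. Singly, the window of ROS1 held 6 of the genes (20.7%, against 4.38%) and that of DML2 held 8 (27.6%, against 4.72%). The window of DML3 held only 1 (3.45%, against 4.52%). Chromosome 2 beyond 2 Mb of ROS1 held 9 (31.0%, against 10.8%). The same window around DME held none of the 29 genes, against 3.96% of the genes that could have qualified. The rule limits this count, since a gene raised with dme-2, in drdd and dme but not in rdd, could not enter the set. These shares are a description and were not tested. Distances and positions come from RefSeq TAIR10.1, looked up by gene identifier.

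Near ROS1 the nearest of the genes were AT2G35820 at -0.26 Mb, AT2G35810 at -0.26 Mb, ACX5 at -0.31 Mb, MEE25 at -0.61 Mb, XIF at -1.75 Mb and GPX2 at -1.87 Mb, where a negative distance means a lower coordinate. The other 9 genes of chromosome 2 lay further out, from TLP2 at -7.36 Mb to AT2G43800 at 2.84 Mb, with CYP705A9 at -3.78 Mb and AT2G21045 at -6.28 Mb among them. Around DML2 the genes were packed more closely. RABC2b lay at -0.048 Mb, SCPL7 at 0.17 Mb, AT3G09450 at -0.18 Mb, AT3G08890 at -0.38 Mb, AT3G11210 at 0.43 Mb and NS2 at -0.71 Mb, followed by AT3G07320 at -0.75 Mb and AT3G07260 at -0.77 Mb. On that chromosome AT3G06245, at 9.89 Mb, was the only gene of the set beyond 2 Mb, although 15.2% of the genes that could have qualified lie there. POLAR lay -0.93 Mb from DML3. SPCH, THI2.2 and AT5G60720 are on chromosome 5 and UGT85A2 on chromosome 1, away from the mutated genes.

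**Figure D3:**
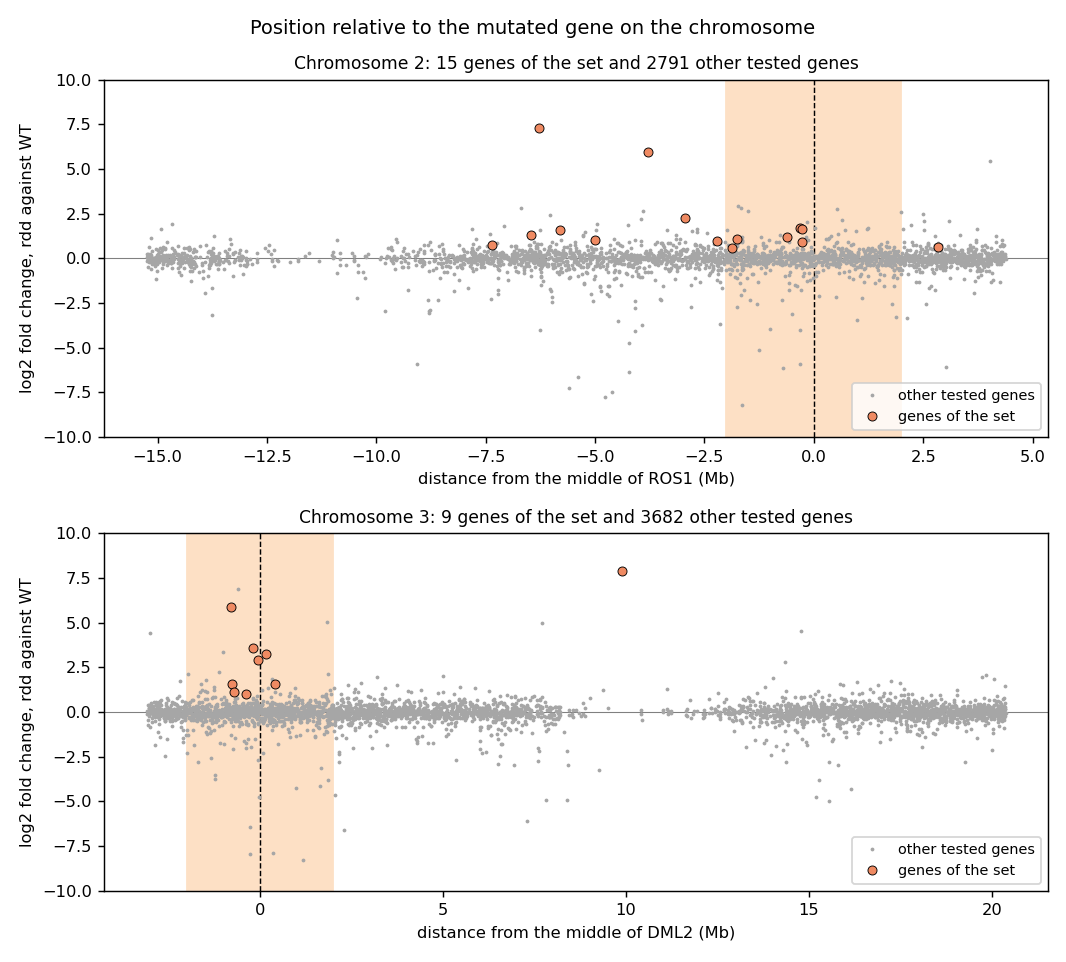
Log2 fold change of rdd against WT (edgeR fit) against distance in Mb from the middle of ROS1 on chromosome 2 (top) and of DML2 on chromosome 3 (bottom); orange circles are genes of the set, grey points the other tested genes, and the shaded band is 2 Mb to either side. The 8 genes within 2 Mb of DML2 all lie within 0.77 Mb of it, and AT3G06245 stands alone at 9.89 Mb; the fitted values of AT2G21045 and AT3G06245 rest on WT libraries with no count and are not bounds.

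Other genes near ROS1 and DML2 were also called. Among 877 other tested genes within 2 Mb of DML2, 3 were higher and 16 lower in drdd against WT, and 11 higher and 17 lower in rdd against WT. Within 2 Mb of ROS1, of 802 other tested genes 6 were higher and 16 lower in drdd, and 6 higher and 14 lower in rdd. The genes of the set, chosen for being higher, are left out of these counts. With them the counts became 11 higher and 16 lower in drdd and 19 higher and 17 lower in rdd near DML2, and 11 higher and 16 lower in drdd and 10 higher and 14 lower in rdd near ROS1. Over all tested genes more were also called lower than higher, 0.79% against 0.559% in drdd and 0.661% against 0.414% in rdd. The calls left without the set are 2.17% and 3.19% of the genes near DML2 and 2.74% and 2.49% of those near ROS1, against 1.35% of all tested genes in drdd and 1.08% in rdd. Near DML3, of 830 other tested genes 6 were higher and 2 lower in drdd (0.964%), and 1 higher and 2 lower in rdd (0.361%). Near DME, of 721 tested genes 3 were higher and 3 lower in drdd (0.832%), and 0 higher and 2 lower in rdd (0.277%). Every drdd and rdd plant carries the DNA linked to its mutant alleles together with the mutations, so an effect of the lost enzymes and one of linked sequence cannot be told apart with these genotypes.

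The genes outside the set that lie next to the 29 in the chromosome were mostly not called. The nearest tested gene on each side was taken, with genes of the set skipped, 56 genes in all. AT2G35810 and AT2G35820, which are adjacent, were therefore not counted as neighbours of each other. By edgeR 0 were called higher and 3 lower in drdd against WT (5.36%, against 1.35% of all tested genes). In rdd against WT 0 were higher and 2 lower (3.57%, against 1.08%). Genes that met the rule were left out, so the counts of 0 higher are limited by the choice. DESeq2 called 0 higher and 4 lower in drdd, where 3.1% of genes with an adjusted p were called, and 2 higher (PUB12 and RAP) and 4 lower in rdd, where 3.08% were. The median log2 fold change of the neighbours was -0.01 in drdd and 0.04 in rdd. With a library left out, 0 of the 3 calls in drdd remained without WT D or drdd C and 1 without WT C or drdd B. Of the 15 fits with a library left out, RABE1e was called in drdd in 13, AT2G35830 in 11 and ELO1 in 4. Over those 15 fits the log2 fold change in drdd stayed between -1.09 and -0.85 for AT2G35830, between -0.64 and -0.50 for RABE1e and between -0.86 and -0.64 for ELO1. In dme against WT and in drdd against rdd edgeR called none of the neighbours, and DESeq2 called EDA3 lower in drdd against rdd, and lower in drdd against WT. The neighbours called lower, AT2G35830, RABE1e and ELO1, each adjoin or overlap a gene of the set, and every drdd library lay below every WT library for each of them.

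AT2G35810 and AT2G35820 are adjacent, 174 bases apart on the same strand, and are followed by AT2G35830. All are annotated as ureidoglycolate hydrolase, an enzyme of purine breakdown, and they resemble each other, with 87.9% identity between AT2G35810 and AT2G35830 over 779 bases and 81.3% between AT2G35820 and AT2G35830 over 627 bases. AT2G35810 had 71.5, 64.5 and 79.7 CPM in the drdd libraries and 66.6, 72.3, 67.5 and 68.1 CPM in the rdd libraries. Elsewhere AT2G35810 had 25.2, 17.7, 16.3 and 28.4 CPM in dme and 22.8, 19.6, 19.5 and 23.6 CPM in WT. AT2G35820 had 34.4, 36.2 and 37.8 CPM in the drdd libraries and 37.9, 41.5, 46.8 and 45.7 CPM in the rdd libraries. Elsewhere AT2G35820 had 23.2, 22.7, 19.6 and 21.7 CPM in dme and 20.7, 24.5, 19.4 and 26.3 CPM in WT. AT2G35830 ran the other way, with 52.7, 48.9 and 64.2 CPM in the drdd libraries and 56.7, 41, 48.3 and 56.5 CPM in the rdd libraries, against 90.2, 105, 66.8 and 113 CPM in the dme libraries and 88.6, 105, 102 and 102 CPM in the WT libraries. Its log2 fold change was -0.93 ± 0.18 (SE, edgeR adjusted p = 0.0197) in drdd and -0.98 ± 0.17 (SE, edgeR adjusted p = 0.00831) in rdd, and no drdd or rdd library reached the lowest dme library. Summed over the 3 genes the level was 149.6 to 182 CPM in drdd and 155 to 170.3 CPM in rdd, against 103 to 163 CPM in dme and 132 to 152 CPM in WT. AT2G35830 gave 32.7% to 35.3% of that sum in drdd and 26.5% to 35.1% in rdd, against 65.0% to 72.1% in dme and 67.1% to 72.3% in WT. The sums in rdd lay above those in WT and overlapped those in dme, and the sums in drdd overlapped both, while the share of AT2G35830 was lower in every drdd and rdd library than in any dme or WT library. Reads that match more than 1 copy may be assigned to the wrong one or dropped, and their part in this was not tested.

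RABC2b overlaps RABE1e, another Rab GTPase gene, by 351 bases on the opposite strand. RABE1e had 20.2, 16.7 and 17.4 CPM in the drdd libraries and 15.9, 18.1, 15.4 and 15.7 CPM in the rdd libraries, against 21.7, 22, 19.4 and 24.2 CPM in the dme libraries and 23, 25.9, 25.4 and 26.6 CPM in the WT libraries. Its log2 fold change was -0.57 ± 0.11 (SE, edgeR adjusted p = 0.0134) in drdd and -0.65 ± 0.10 (SE, edgeR adjusted p = 0.00346) in rdd, opposite in direction to RABC2b. ELO1, a gene of the Elongator complex that modifies tRNA, overlaps AT3G11210 by 30 bases on the same strand and had 4.23, 4.15 and 4.72 CPM in the drdd libraries and 4.74, 4.68, 4.25 and 5.06 CPM in the rdd libraries, against 9.72, 8.8, 9.28 and 8.53 CPM in the dme libraries and 7.04, 5.73, 8.89 and 6.33 CPM in the WT libraries. It passed in drdd, with -0.77 ± 0.17 (SE, edgeR adjusted p = 0.0374), and not in rdd, with -0.59 ± 0.15 (SE, edgeR adjusted p = 0.0923). With a library left out, the call of ELO1 in drdd held in only 4 of 15 fits. The dme libraries of ELO1 lay above most WT libraries, a difference that did not pass, with a log2 fold change of 0.40 ± 0.15 (SE, edgeR adjusted p = 0.974).

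**Figure D4:**
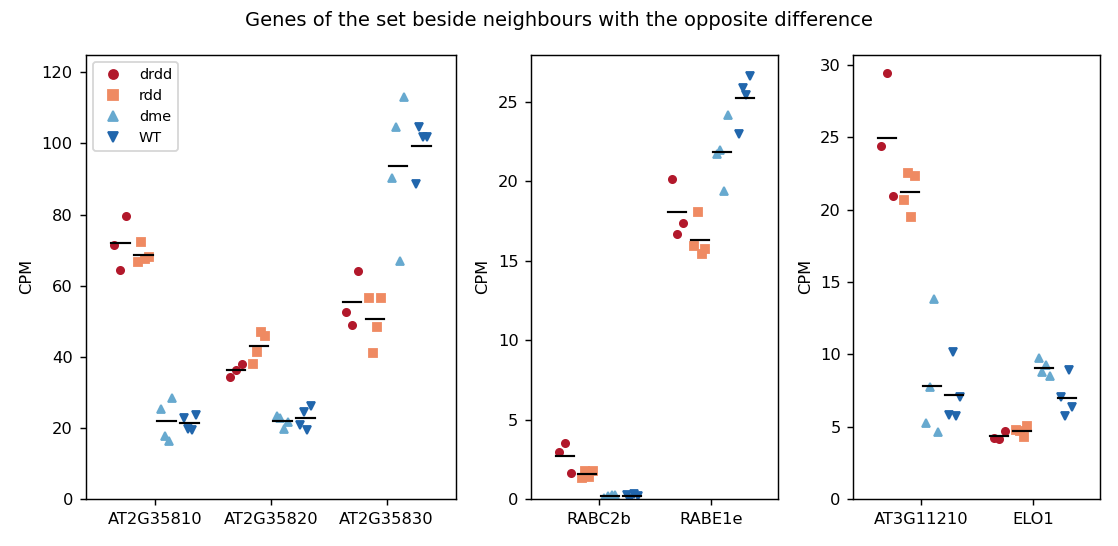
CPM by library, on linear axes that start at 0, of genes of the set beside the called neighbours: AT2G35810 and AT2G35820 with AT2G35830 (left), RABC2b with RABE1e (middle) and AT3G11210 with ELO1 (right); colours and symbols give the genotype in the order drdd, rdd, dme and WT, and bars are means. In each panel the genes of the set are higher and the neighbour lower in drdd and rdd, with AT2G35830 between 41.0 and 64.2 CPM there.

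Overlap with other annotated genes was counted for the 29 genes only, so whether it is more frequent than in other genes is not shown. Of the 29 genes, 12 overlap another gene and 8 of these overlap one on the opposite strand. The strand setting of the counting is not given in the sources used here, so counts in overlaps on opposite strands are uncertain. XIF is covered over 9509 bases by the antisense RNA AT2G31902, which had 4.43 CPM in drdd and 3.62 CPM in rdd, against 5.59 CPM in dme and 5.63 CPM in WT, opposite in direction to XIF. POLAR overlaps AT4G31810 by 310 bases, which had 12.5 CPM in drdd and 10.2 CPM in rdd, against 10.05 CPM in dme and 7.35 CPM in WT, and GPX2 overlaps AT2G31560 by 38 bases. TLP2 overlaps the cell cycle gene APC10 by 163 bases, which had 23.7 CPM in drdd and 21.0 CPM in rdd, against 18.1 CPM in dme and 21.2 CPM in WT. The other genes that MEE25, TLP2, AT3G08890 and AT2G20560 overlap had almost no counts.

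Copies elsewhere in the genome were read from the best match of each gene only. In a search of the transcripts, 21 of the 29 genes had a best match that does not overlap them. The identity was 90% or more for 2 of them and 80% to 90% for 8. For 5 genes the best match was an overlapping gene, and their further matches were not counted. AT2G21045 matched AT2G20993 at 96.6% over 147 bases, a gene with no count in any library. AT3G07260 matched FHA2, at 90% over 680 bases, and FHA2 averaged 25.9 CPM in drdd and 19.3 CPM in rdd, against 19.1 CPM in dme and 21.3 CPM in WT. CYP705A9 matched its neighbour CYP705A8 at 84.5%, and CYP705A8 averaged 0.101 CPM in drdd and 0.0322 CPM in rdd, against 0 in dme and 0.0198 CPM in WT. ACX5 matched ACX1, which averaged 76.4 CPM in drdd and 62.0 CPM in rdd, against 54.3 CPM in dme and 58.3 CPM in WT. The copies of these genes did not pass the test or were too low for it, AT2G35830 excepted.

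Among relatives of the same symbol family, chosen after the 29 genes were known, 57 of 94 were tested. None was called higher, and 1 was called lower in drdd (SCPL34) and 1 in rdd (SCPL27) against WT. Of all tested genes 1.35% and 1.08% were called. Family medians of the log2 fold change ran from -0.13 (TLP2) to 0.77 (UGT85A2) in drdd and from -0.26 (PUP5) to 0.32 (UGT85A2) in rdd. The tested relatives were spread over the families of PUP5 (9 tested), XIF (9), TLP2 (8), SCPL7 (8), CYP705A9 (7), GPX2 (6), UGT85A2 (5) and ACX5 (4). Of the 11 listed cofactor and repair genes of demethylation, 10 were tested and 0 were called in drdd or rdd against WT, with medians of 0.00 and -0.01 on the log2 scale. The same was true of 16 genes of the DNA methylation machinery, with medians of 0.09 in both. No gene of the set is in these lists.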

How the data were processed

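The authors deposited whole-number read counts per gene for 15 libraries and DESeq2 tables of dme, rdd and drdd against WT and of drdd against rdd. Per the file headers, those deposited tables hold a mean signal (counts divided by size factors), a log2 fold change with its standard error, a Wald statistic (a score with no fixed range) and a p-value with its adjusted value. The submitters' processing notes name the tools STAR, HTSeq, FastQC, Trim Galore and DESeq2. For genome build, annotation and strand the sources used here give nothing, so reads shared by overlapping genes or close copies may be misassigned.

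CPM was the deposited count divided by the library total over genes, and 5 summary lines that name no gene stayed out. Tests used edgeR 4.0.16 in R 4.3.3 on the deposited counts, with filterByExpr (18598 genes left, all 29 among them), TMM and 1 quasi-likelihood fit with robust dispersions over the 4 groups (11 residual degrees of freedom). Calls were made at an adjusted p under 0.05 (Benjamini-Hochberg over all tested genes). Library totals set the precision, and bounds and counting intervals (exact, 95%) cover counting error only. Alternatives were DESeq2 1.42.0, its size factors in edgeR, no filter on low counts, only the groups compared, the replicate letter as a block, each library left out, other ratios and mean CPM in the rule, and other scalings of CPM.

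Gene names, positions and sequences came from RefSeq TAIR10.1, which matched 37051 of 37336 identifiers by locus tag and all 29 genes of the set. Copies were sought with blastn 2.17.0 at an E-value of at most 1e-10. The fit was tested on simulated data. Named genes were the 10 with the largest ratio, the 6 most abundant, the 2 with the lowest p in each tested contrast, adjacent or listed genes, and those near the threshold or the mutated genes. The members and lists were chosen with earlier results of these data known.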

Additional observations from a re-analysis of the deposited data

Results flagged for a closer look

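In 84 groups of 4 libraries, 3 held a library that stood apart by Dixon's criterion for the gap to its nearest value, and chance gives about 1 in 20 groups. CYP705A9 was at 0.0821 CPM in dme C, from 1 count, where the other dme libraries had none. AT2G28815 was at 2.30 CPM in dme A, against 0.821 to 1.07 CPM in the other dme libraries, and this library sets the bound of that gene. AT2G20560 was at 3.64 CPM in WT A, against 4.12 to 4.19 CPM in the other WT libraries.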

How the results depend on the processing

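The set held 29 genes at a ratio of 1.2, 138 at a ratio of 1, 16 at 1.5 and 10 at 2. A mean level of 0.5 CPM gave 30 genes and one of 2 CPM gave 26. With TMM factors or DESeq2 size factors in the CPM the set held 24, all of them among the 29, and AT2G35820, AT5G60720, UGT85A2, XIF and GPX2 left it, with ratios of at least 1.12, so that their libraries still did not overlap. Leaving out a library gave 31 to 46 genes, with all 29 kept each time, since fewer libraries make the rule easier to meet; the counts furthest from 29 came without rdd B (46) and without dme C (45). In drdd against rdd, in dme against WT and in the interaction, every alternative run called 0 of the 29 genes. In drdd against WT the count of 24 became 12 with only the groups compared (0.617% of all tested genes called) and ran from 14 (without drdd C, 0.559%) to 26 (without dme D, 1.39%) with a library left out, against 1.35%; in rdd against WT the count of 21 ran from 17 to 23 with a library left out. Neighbours called in rdd against WT were 6 by DESeq2 and 2 to 4 with a library left out (4 without dme C), against 2. Neighbours called in drdd against WT were 1 with only the groups compared and 0 to 3 with a library left out, against 3; the count was 0 without WT D or drdd C and 1 without WT C or drdd B, while the direction stayed the same in all 15 such fits and every drdd library lay below every WT library. Of these neighbours, ELO1 was called in drdd in only 4 of the 15 fits. The cause of these shifts was not tested.

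With the letter as a replicate block the fit called 18 of the 29 genes in rdd against WT, where 0.597% of all tested genes were called, 16 in drdd against WT, where 0.747% were, and 0 in the other contrasts, and 2 neighbours in each of rdd and drdd against WT. Whether the letters pair the libraries is not settled by these data. The deviations of libraries with the same letter from their group means had correlations across genes of -0.49 to 0.43, with 8 of 21 over 0.1. Pairs with different letters ran about as widely, from -0.46 to 0.52. Depth limits the silent genes most, since AT2G21045, CYP705A9, AT3G07260 and AT3G06245 rest on 8 to 76 counts a library in drdd and rdd.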

Other observations

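Lists without a gene of the set also held called genes. MAF5, a flowering repressor of the FLC clade (6 genes tested), had 67.4, 52.3 and 49.9 CPM in the drdd libraries, 39.4 to 43.4 CPM in rdd and 24.6 to 48.1 CPM in dme, against 1.73 to 5.83 CPM in WT. It was called higher in drdd, rdd and dme against WT, with log2 fold changes of 3.97 ± 0.35, 3.61 ± 0.33 and 3.39 ± 0.33 (SE, edgeR adjusted p = 2.47e-05, 5.35e-05 and 0.00163), and its interaction was -3.03 ± 0.45 (SE, edgeR adjusted p = 0.0192). No other gene of the clade was called. Beside ACX5, an enzyme of jasmonate synthesis, 8 listed jasmonate response genes were tested, of which the storage proteins VSP1 and VSP2 were higher in drdd against WT and none passed in rdd against WT, where 1.35% and 1.08% of all tested genes were called. VSP2 averaged 20.8 ± 21.7 CPM in drdd and 0.470 ± 0.565 CPM in rdd, against 0.376 ± 0.290 CPM in dme and 0.183 ± 0.267 CPM in WT, and VSP1 averaged 24.3 ± 25.8 CPM in drdd and 0.117 ± 0.135 CPM in WT. The summed level of these genes was 2173 to 5793 CPM in drdd and 1067 to 1997 CPM in rdd, against 1119 to 2419 CPM in dme and 897 to 2432 CPM in WT, so the drdd and WT libraries overlapped. Of 7 tested genes of xenobiotic detoxification, CYP81D11 and the glucosyltransferase gene UGT74E2 were higher in drdd against WT and CYP81D11 in rdd against WT. CYP81D11 averaged 6.0 ± 7.39 CPM in drdd and 3.16 ± 2.19 CPM in rdd, against 0.738 ± 0.660 CPM in dme and 0.106 ± 0.163 CPM in WT. VSP1, VSP2 and CYP81D11 varied far more among drdd libraries than most of the 29 genes, whose median coefficient of variation in drdd was 17.7%. MAF5 did not, at 56.5 ± 9.48 CPM in drdd.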
